A study of Mus musculus with 1699 samples.

Results

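The genes described here were the 7 enzymes that make and renew tetrahydrobiopterin or break down monoamines: Gch1, Pts, Spr, Qdpr and Pcbd1 for the cofactor (5 genes) and Maoa and Maob for breakdown (2 genes). They were chosen by name, as listed enzymes, from the 39468 gene entries of the series, and each of the 7 symbols matched 1 entry. They were followed by stage, by Pitx3 genotype and by the level of Th, the tyrosine hydroxylase gene. The level is in RPKM, reads scaled to the length of the gene model and to the mapped reads of the cell, and cells with Th over an RPKM of 150 were called Th-high and those at 10 or less Th-low.

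The series held 1699 single cells sorted for GFP from dissected mouse ventral midbrain and sequenced by Smart-seq2, a full-length method without molecular identifiers, so that 1 read is not 1 molecule. Every animal carried the Pitx3tm1Mli allele, in which eGFP replaced the Pitx3 coding sequence: heterozygotes (Pitx3eGFP/wt) have 1 working Pitx3 copy and were taken at embryonic day (E) 13.5, E15.5 and E18.5 and at postnatal day (P) 1, P7 and P90, and homozygotes (Pitx3eGFP/eGFP), which lack working Pitx3, at E13.5 and P1. No cells without the eGFP allele were in the series, so the heterozygotes served as the controls. Several animals were used for each stage and no cell was tied to an animal, so each stage and genotype was 1 sample. For that reason no p-value is given anywhere, and all intervals and limits are 95% and cover counting of cells only. By the study's methods, tissue was dissociated with 1 kit at E13.5 to E18.5, another at P1 and P7, and papain at P90, so stage and kit cannot be told apart across those steps. The sample labels instead name a single kit for all ages before the adult, so a change of kit between E18.5 and P1 is uncertain.

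Of 1649 cells that passed the depth limits, those in clusters with oligodendrocyte markers were set aside (87 of them from P7), and 1495 were kept: 1152 Pitx3eGFP/wt cells, with 92 at P7 and at least 140 at each other stage, and 343 Pitx3eGFP/eGFP cells. More cells were kept than in the study, whose limits on mapping were not applied here. The number also depended on the detection limit, with 1377 cells kept when detection was taken over all 39468 entries. Kept cells held 100007 to 8634201 reads on genes, with group medians of 753256 to 2357898. Pitx3 itself followed the labels, with a mean RPKM of 415.7 in Pitx3eGFP/wt against 18.8 in Pitx3eGFP/eGFP cells at E13.5 and 104.7 against 8.35 at P1. Some kept cells still carried markers of other cell types: at least 3 glial or vascular markers were over an RPKM of 10 in 33.7% of cells at P7, 17.1% at P1 in Pitx3eGFP/eGFP, 10.4% at P1 in Pitx3eGFP/wt and 0% to 6.42% in the other groups. With those cells left out, a choice made after seeing the data, the counts of members given below for all 14 comparisons of stage, Th level and genotype were the same.

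Tyrosine hydroxylase cannot turn tyrosine into the dopamine precursor without tetrahydrobiopterin as electron donor. Gch1 (GTP cyclohydrolase), Pts (6-pyruvoyltetrahydropterin synthase) and Spr (sepiapterin reductase) build the cofactor from GTP in that order, and Gch1 is known as the rate-limiting step. Each hydroxylation oxidises the cofactor, which Pcbd1 (pterin carbinolamine dehydratase) and Qdpr (dihydropteridine reductase) return to its active form. Maoa and Maob, flavin enzymes of the outer mitochondrial membrane, oxidise dopamine and other monoamines to aldehydes. Loss of function in the synthesis genes is a known cause of dopa-responsive dystonia and related dopamine deficiencies.

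By the GENCODE annotation of GRCm38, the members lie at chr14:47153895-47189413 (Gch1, minus strand), chr9:50521617-50528724 (Pts, minus), chr6:85130176-85137766 (Spr, minus), chr5:45434021-45450236 (Qdpr, minus), chr10:61089331-61094324 (Pcbd1, plus), chrX:16619698-16687818 (Maoa, plus) and chrX:16709282-16817366 (Maob, minus). Maoa and Maob are neighbours that run towards each other with 21463 bases between them. An antisense gene, Gm42413, overlaps Qdpr exons, and since the libraries did not mark strand its reads cannot be told apart from those of Qdpr. The 2 processed pseudogenes within Gch1 introns overlapped no Gch1 exon.

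Because Gch1 is the rate-limiting enzyme and its share was higher in Th-high cells in every group, the 250 bases before the RefSeq starts of Gch1 (GRCm38.p6, chr14:47189414-47189663, minus strand) and of Th (chr7:142899996-142900245, minus strand) are shown side by side, with capitals marking matches to the short motifs listed after them.
Gch1: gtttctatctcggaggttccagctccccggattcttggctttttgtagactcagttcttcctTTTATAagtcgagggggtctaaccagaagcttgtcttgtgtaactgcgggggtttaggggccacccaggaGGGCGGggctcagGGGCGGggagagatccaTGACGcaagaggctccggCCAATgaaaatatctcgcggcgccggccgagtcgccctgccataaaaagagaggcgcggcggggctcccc
Th: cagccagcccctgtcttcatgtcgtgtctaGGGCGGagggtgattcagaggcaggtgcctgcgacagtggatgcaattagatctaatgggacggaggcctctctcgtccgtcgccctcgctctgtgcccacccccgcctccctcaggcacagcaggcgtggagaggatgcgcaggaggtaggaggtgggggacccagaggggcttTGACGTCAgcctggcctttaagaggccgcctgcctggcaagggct
The motifs were searched as exact letters on both strands of the RefSeq window of 250 bases before to 50 after each start, which was found for 6 of the 7 members and not for Maob. Gch1 held the CCAAT box CCAAT 70 bases before its start, TGACG, the core of the cAMP response element, at 88 bases, the GC box GGGCGG at 2 places further upstream, and TATAAA on the reverse strand upstream of those. Th held the full cAMP response element TGACGTCA, which contains TGACG, at 45 bases and GGGCGG at 220 bases. Of 32851 promoters, CCAAT was in 37.4%, GGGCGG in 35.7%, TGACG in 20.8%, TATAAA in 13.6% and TGACGTCA in 1.79%. GGGCGG was in all 6 member windows, CCAAT in 2 (Gch1 and Qdpr), TGACG in 2 (Gch1 and Maoa), TATAAA in 2 (Gch1 and Pcbd1) and TGACGTCA in none. The letters TAATCC, a Pitx core site, were in 7.06% of promoters and in 1 member (Spr), and AAAGGTCA, an Nr4a2 site, in 1.51% and no member. These matches describe letters in these windows only.

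The first comparison asked how the enzymes changed from early neurons to the adult. Over all kept Pitx3eGFP/wt cells Gch1 ran opposite to the rest. It was over an RPKM of 10 in 60.7% (52.1% to 68.9%) of them at E13.5. The share was then 45%, 45.99%, 47.8% and 33.7% from E15.5 to P7, and 28.3% (23.5% to 33.5%) at P90. Its mean RPKM went from 141.2 at E13.5 through 51.97, 54.9, 56.5 and 51.6 to 28.6 at P90. Among the sorted cells a majority thus had Gch1 over 10 at E13.5 and a minority in the adult, while the highest cells still reached an RPKM of 540.5 at P90.

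Spr, the last step of synthesis, showed the widest rise. It was over 10 in 2.86% (0.784% to 7.15%) of cells at E13.5 and in 12.9%, 33.7%, 17.9%, 34.8% and 88.6% (84.7% to 91.9%) at the later stages in order, and its mean RPKM went from 2.06 to 71.8. The largest step was the last: from P7 to P90 the share rose by 53.8 points. Pts, the middle step, was nearly level in mean RPKM (36.1 at E13.5, 40.8 at P90, and at most 53.6 at E15.5), although the share of cells over 10 went from 32.9% (25.2% to 41.3%) to 59.7% (54.1% to 65.1%).

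The recycling enzymes also rose. Qdpr was over 10 in 50% (41.4% to 58.6%) of cells at E13.5 and in 47.9%, 74.9%, 70.1%, 82.6% and 99.1% (97.3% to 99.8%) at the later stages, with a mean RPKM of 63.2 at E13.5 and 245.6 at P90. Pcbd1 was over 10 in 17.9% (11.9% to 25.2%) at E13.5, in 24.3%, 64.2%, 57.1% and 52.2% at E15.5 to P7, and in 86.8% (82.6% to 90.3%) at P90, with means of 16.9 and 147.04 at the ends. At P90 the members ordered per length as Qdpr (median RPKM 212.8), Pcbd1 (124.7), Spr (62.2) and Pts (29.9), with Gch1, Maoa and Maob at medians under 1. Members next to each other in that order had overlapping ranges of cells, as the quartiles of Qdpr (140 to 330) and Pcbd1 (49.5 to 202.4) show.

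Of the breakdown enzymes, Maoa was over 10 in 6.43% (2.98% to 11.9%) of cells at E13.5 and then, in stage order, in 9.29%, 39.6%, 27.2%, 42.4% and 39.4% (34.04% to 44.9% for the last, P90). Maob had no read in any of the 140 cells at E13.5, which allows a share of up to 2.14%, and was over 10 in 1 cell of 140 at E15.5 and then in 9.09%, 12.3%, 13.04% and 19.1% of cells (14.96% to 23.8% for the last, P90). Both genes were thus nearly absent at E13.5 and E15.5 and present in a minority of cells from E18.5 on.

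**Figure D1:**
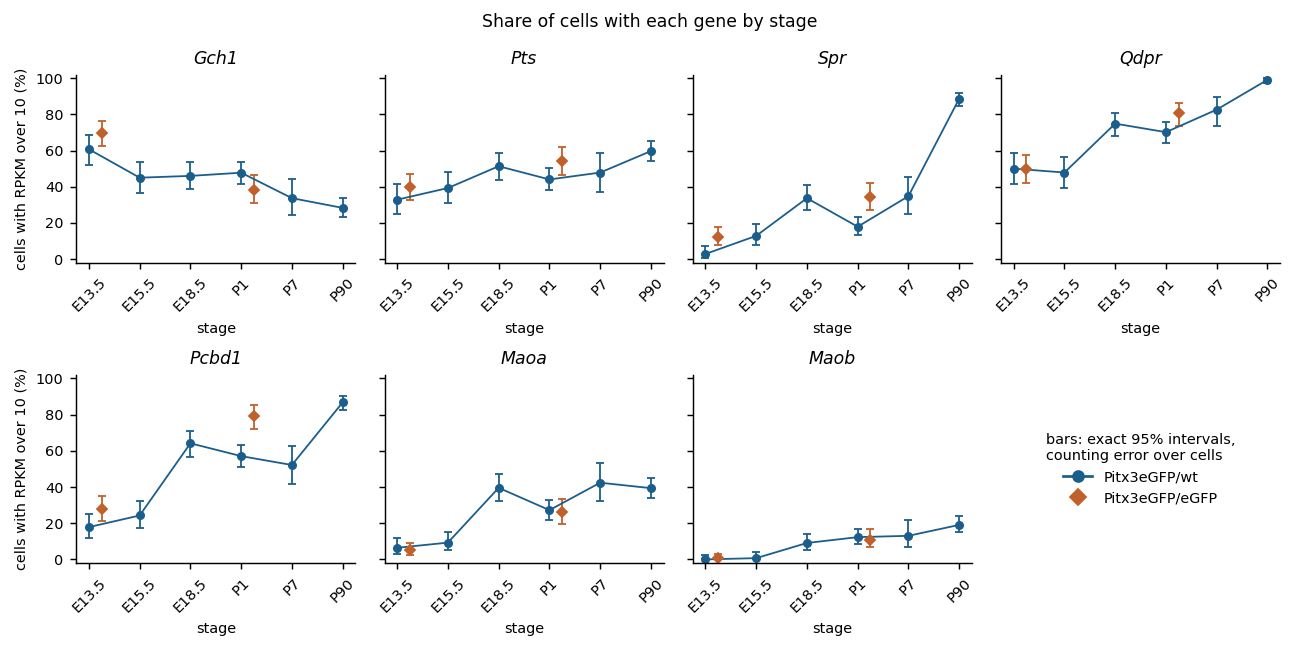
Percent of Pitx3eGFP/wt cells over an RPKM of 10 (y axis) at each of the 6 stages (x axis) for the 5 tetrahydrobiopterin enzymes and for Maoa and Maob, with exact binomial 95% intervals. Diamonds are Pitx3eGFP/eGFP cells at E13.5 and P1. In Pitx3eGFP/wt cells Gch1 goes down from 60.7% to 28.3% while Spr goes up from 2.86% to 88.6%.

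Between E13.5 and P90 the share of cells changed by more than counting error for 7 of 7 members, but so it did for 72.1% of all 11086 genes whose mean RPKM reached 5 at either stage. The differences were 85.8 points (79.97 to 89.2) for Spr, 68.9 (60.6 to 75.3) for Pcbd1, 49.1 (40.7 to 57.3) for Qdpr, 32.96 (25.5 to 39.1) for Maoa, 26.8 (17.1 to 35.7) for Pts, 19.1 (14.3 to 23.7) for Maob and -32.4 (-41.4 to -22.7) for Gch1. By mean RPKM + 1, 5 members were at least 2-fold higher at P90 against 19.7% of all genes, and 1 was at least 2-fold lower against 21.8%. The folds were 23.7 for Spr, 8.28 for Pcbd1, 4.45 for Maoa, 3.84 for Qdpr and 1.13 for Pts, and Gch1 was 4.81-fold lower. Spr, Maoa and Maob passed the limit on mean RPKM only through P90. Maob was also among the 5 higher members, but its fold is not printed since E13.5 held no read.

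Between E13.5 and E18.5, with 1 dissociation kit by either source, the share differed by more than counting error for 7 of 7 members against 55% of all genes. Cells of E18.5, like those of P90, received spike-in RNA and those of E13.5 and E15.5 did not, and the E18.5 median depth was 1140978 against 2357898 reads at E13.5, so stage and library batch cannot be told apart in either comparison. With every cell thinned to the same depth the count was also 7. At least 2-fold higher were 4 members (Maob, with no read at E13.5, Maoa at 6.88-fold, Spr at 6.17-fold and Pcbd1 at 4.20-fold) against 11.9% of genes, and 1 was lower (Gch1, 2.54-fold) against 8.29%. Maob, Maoa and Spr passed the limit on mean RPKM only through E18.5, where they were high, so their place in that count was set by the limit. Step by step, Gch1 fell by 15.7 points from E13.5 to E15.5 and then differed by 0.989 points (-9.84 to 11.7) from E15.5 to E18.5. Over that second step Pcbd1 rose by 39.9 points, Maoa by 30.3, Qdpr by 27.01, Spr by 20.8, Pts by 12.1 and Maob by 8.38. Over the first step Spr rose by 10 points, and the intervals of the other 5 members reached 0.

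From E18.5 to P1, where the kit changed by the methods but not by the labels, Spr fell by 15.8 points and Maoa fell by 12.3 points. Among the 94 P1 cells that, like those of E18.5, received spike-in RNA, the same differences were -10.3 points (-20.5 to 1.16) for Spr and -4.47 for Maoa. Gch1 was 13.6 points (1.20 to 25.3) higher there. From P1 to P7 Spr rose by 16.9 points, Maoa by 15.2 and Qdpr by 12.5, and Gch1 fell by 14.1 points. P7 cells received no spike-in RNA, P90 cells did, and the P1 set mixed cells with and without it. Stage and library batch can therefore not be told apart over these sets from P1 to P7 or from P7 to P90. The P1 cells without spike-in RNA were like those of P7 in that respect only. Among them Gch1 was over 10 in 50.9% of Th-high cells, against 38.6% at P7. In Th-low cells the shares were 25% and 31.03%. Spr was at 12.96% against 29.8% in Th-high and 22.7% against 44.8% in Th-low cells. Maoa was at 23.1% against 38.6% and 25% against 48.3%, and Qdpr at 70.4% against 85.96% and 68.2% against 79.3%. Without the cells that held glial or vascular markers the Qdpr step from P1 to P7 was 8.27 points (-4.72 to 18.6). The other named steps between neighbouring stages whose intervals had excluded 0 still did so. The P1 cells with spike-in RNA were not taken apart in this way. From P7 to P90 the rises were 53.8 points for Spr, 34.6 for Pcbd1, 16.5 for Qdpr and 11.9 for Pts.

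Thinning every cell to 100000 reads, so that depth was equal, left these shares close to those above: 59.3% and 27.4% for Gch1, 2.14% and 88.9% for Spr, and 7.14% and 36.3% for Maoa at E13.5 and P90. Within Th-high cells alone the stage change had the same directions. From E13.5 to P90, 5 members were at least 2-fold higher (19.5% of all genes) and 1 lower (22.6%), with folds of 18.2 for Spr, 9.66 for Pcbd1, 6.16 for Maoa and 3.09 for Qdpr, and Gch1 3.39-fold lower. Spr, Maoa and Maob again passed the limit on mean RPKM only through P90. In Th-low cells the mean RPKM of Gch1 went from 69.5 to 3.56, which was 15.5-fold lower. The P90 Th-high cells were mixed in Slc6a3, the dopamine transporter gene. Gch1 was over 10 in 75.7% of the 70 with Slc6a3 over 150 and in 18.1% of the 83 at 10 or less. Within Th-high cells with Slc6a3 over 150 the Gch1 share was not lower at P90 than at E13.5, as given below. The stage change of Gch1 therefore need not hold for each kind of Th-high cell.

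Other genes of the pathway moved less uniformly between E13.5 and P90. Of 14 genes related to tetrahydrobiopterin, 6 passed the limit on mean RPKM, 3 were at least 2-fold higher (19.7% of all genes) and none lower (21.8%). The 3 higher genes passed the limit only through P90, where they were high, so the limit set their direction. Gchfr, which makes the feedback regulator of Gch1, went from 0 to a mean RPKM of 6.53. Pcbd2, a relative of Pcbd1, went from 3.09 to 19.98, and Nos1, a nitric oxide synthase that also uses the cofactor, from 0.000704 to 8.04. Th itself had a mean RPKM of 1326 at E13.5 and 1638 at P90, and the carbonyl and aldose reductases Cbr1 (134.2 and 152.7) and Akr1b3 (49.9 and 33.6) did not pass 2-fold.

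Of 13 breakdown genes besides Maoa and Maob, 10 passed the limit, 2 were at least 2-fold higher at P90 (19.7% of all genes) and 1 lower (21.8%), so the list did not stand out from the background. Aldh1a1, an aldehyde dehydrogenase of the cytosol, went from a mean RPKM of 7.80 to 692, and Aldh9a1 from 9.80 to 26.7. Adh5, an alcohol dehydrogenase, went from 160 to 67.04. Of the storage and uptake genes Slc6a3 (the dopamine transporter, Dat) rose from 117.3 to 430, while Slc18a2 (the vesicular transporter) was at 224.3 and 184.2 and Ddc (the decarboxylase that makes dopamine) at 1165 and 671.

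The next comparison set Th-high against Th-low cells of the same stage. Gch1 was higher in Th-high cells at every stage and in both genotypes. At E13.5 it was over 10 in 73.3% of 90 Th-high cells and 31.8% of 44 Th-low cells, a difference of 41.5 points (23.7 to 55.8). The difference was 34.5 points (16.8 to 47.5) at E18.5, 33.6 (19.03 to 45.4) at P1 and 33.1 (22.7 to 41.7) at P90, and its interval reached 0 at E15.5 (20 points, -0.255 to 36.4) and P7 (7.56, -14.0 to 26.5).

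The mean RPKM of Gch1 in Th-high and Th-low cells was 169.4 and 69.5 at E13.5, 64.2 and 17.6 at E15.5, 71.1 and 10.4 at E18.5, 75.9 and 22.7 at P1, 71.1 and 23.99 at P7, and 49.3 and 3.56 at P90. As a ratio of means + 1 the contrast was widest in the adult, where the fold was 11.05, while in points of share it was widest at E13.5. In the adult no Th-low cell was over an RPKM of 50.1. Cells overlapped at every stage, since the medians of Th-high cells were 121.3, 10.3, 25.1, 27.5, 0.249 and 0.427 from E13.5 to P90: at P7 and P90 most Th-high cells had little or no Gch1. Over the 12 plates with names in the labels, Gch1 was higher in the Th-high cells of all 12, by 13.9 to 50.6 points.

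**Figure D2:**
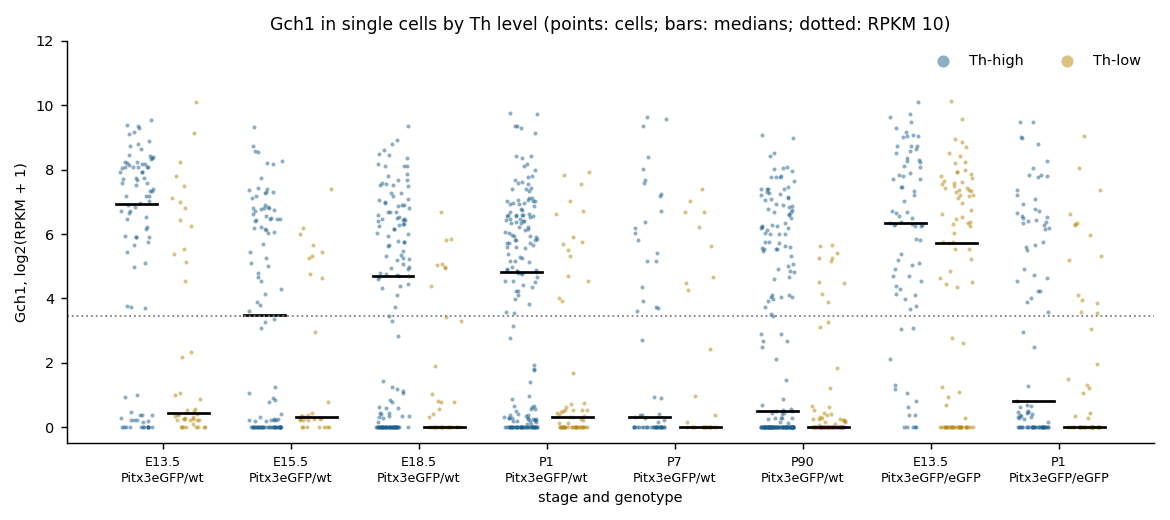
Gch1 in each kept cell, as log2(RPKM + 1) (y axis), for Th-high and Th-low Pitx3eGFP/wt cells at each stage and Pitx3eGFP/eGFP cells at E13.5 and P1 (x axis), with points for cells and lines for medians. Cells at 0 are found in every group, and the Th-high median goes from an RPKM of 121.3 at E13.5 to 0.427 at P90.

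Pcbd1 was, after Gch1, the member most often higher with Th, and at P7 its difference was the larger. It was higher in Th-high cells by 14.3 points at E13.5, 32.4 at P1, 52.9 at P7 (70.2% against 17.2%) and 11.9 at P90 (90.4% against 78.6%), with shares of 64.7% and 64.9% at E18.5. Pts was higher by 17.3 points at E13.5, 24.4 at P1 and 14.9 at P90 (67.98% against 53.1%). Maob differed at P90, with 27.5% against 9.18% of cells (18.3 points) and a mean RPKM of 23.3 against 5.05. Spr went the other way at E18.5, with 28.1% of Th-high against 51.4% of Th-low cells, and was lower in Th-high cells on 11 of 12 plates. Qdpr and Maoa had no stage at which the interval excluded 0. On the named plates Pcbd1 and Pts were higher in Th-high cells on 9 of 12 each, Maoa on 8 and Maob on 7 (lower on 2), and Qdpr was lower on 8.

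Counted over the members, the share differed between Th-high and Th-low cells by more than counting error for 3 of 7 at E13.5 (8.03% of all genes), 0 at E15.5 (7.98%) and 2 at E18.5 (11%), and after birth for 3 at P1 (12.9%), 1 at P7 (13.5%) and 4 in the adult (15.1%). In Pitx3eGFP/eGFP cells the counts were 1 at E13.5 (9.44%) and 2 at P1 (10.7%), and each was 0 to 1 with a plate left out. At P90, 2 of 7 members were at least 2-fold higher in Th-high cells (Gch1, and Maob at 4.01-fold), against 2.75% of genes, and 0 were lower, against 2.33%. Gch1 passed the limit on mean RPKM only through the Th-high cells, where it was high. Of the other pathway genes at P90, the storage and uptake genes were higher for 3 of 3, with Slc6a3 at a mean RPKM of 781 against 6.57, Slc18a2 at 303.3 against 34.2 and Ddc at 1060 against 173.3. Of the breakdown list 2 were higher, Aldh1a1 (1259.97 against 2.12) and Akr1b3 (45.6 against 19.5). Aldh1a1 passed the limit only through the Th-high cells, where it was high. Nos1 was lower (4.28 against 12.5) and passed the limit only through the Th-low cells.

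**Figure D3:**
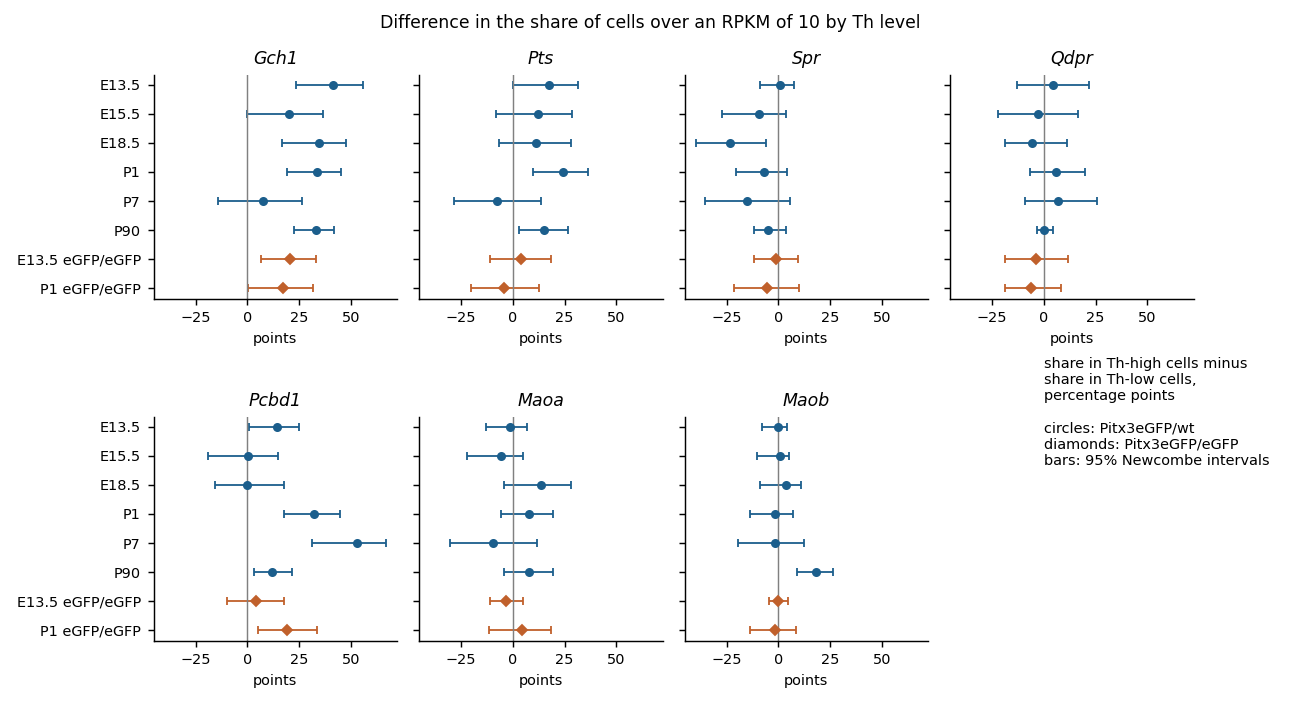
Th-high minus Th-low difference in the percent of cells over an RPKM of 10, in points (x axis), for each of the 7 members by stage and genotype, with 95% Newcombe intervals. The points for Gch1 lie to the right of 0 in every group, from 7.56 at P7 to 41.5 at E13.5.

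Depth was alike in the sets, with medians of 1810462 and 1875246 reads in Th-high and Th-low cells at P90. Some glial genes were not alike. The summed RPKM of 7 astrocyte markers at P90 had a median of 43.7 in Th-high and 324.7 in Th-low cells. Aldoc carried that sum, with a mean RPKM of 169.2 and 553.9 and shares over 10 of 49.4% and 84.7%, whereas Slc1a2 went the other way (35.4% and 15.3%), and Aqp4, Slc1a3 and Gja1 were over 10 in no cell. At P7 the oligodendrocyte markers had means of 85.6 and 3303 but medians of 59.1 and 84.5, and the vascular markers means of 3.56 and 1428 but medians of 0, so a few cells carried those means. The part of these cells in the P7 values was not tested beyond the count without them given above.

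Across cells of a group, the rank correlation of Gch1 with Th was 0.41, 0.11, 0.47, 0.42, 0.26 and 0.48 from E13.5 to P90 in Pitx3eGFP/wt and 0.19 and 0.21 in Pitx3eGFP/eGFP cells at E13.5 and P1. The highest values for other members were 0.43 for Pcbd1 at P7, 0.33 for Pcbd1 and 0.30 for Maob at P90. Between members they reached 0.39 (Maoa with Maob at P7) and 0.31 (Gch1 with Maob at P90). These are descriptions over cells that share libraries and depth, and in sparse counts values of this size are weak.

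Adult Th-high cells were then divided by Slc6a3, the gene for Dat, since the study distinguishes Dat-high from Dat-low neurons. By the study's account Dat-high neurons were rarer among the sequenced adult cells than in the tissue, so shares over all adult cells here need not be those of the tissue. Gch1 and Maob went with Slc6a3. In the 70 Dat-high cells (Slc6a3 over 150) Gch1 was over 10 in 75.7%, against 18.1% of the 83 Dat-low cells (10 or less), a difference of 57.6 points (42.9 to 68.6), with a mean RPKM of 110 against 7.20. Maob was over 10 in 51.4% against 8.43%, a difference of 42.99 points (29.03 to 55.1), with means of 45.4 and 7.30. Th itself was also higher in the Dat-high cells (5497 against 895), so that the level of Th and that of Slc6a3 cannot be told apart in this division.

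Pts was over 10 in 78.6% against 57.8% (20.7 points) and Maoa in 54.3% against 37.3% (16.9 points, 1.13 to 31.7). Spr was at 80% and 89.2%, Qdpr at 100% and 97.6% and Pcbd1 at 94.3% and 87.95%, so the other 4 cofactor enzymes were over 10 in most cells of either set while Gch1 was not. The difference was larger than counting error for 4 of 7 members, against 20.7% of all genes, and 2 (Gch1 at 13.5-fold and Maob at 5.59-fold) were at least 2-fold higher, against 4.66%, with none lower, against 7.69%. On each of the 4 adult plates Gch1 (50 to 74.7 points), Maob (35.7 to 54.8) and Maoa (7.14 to 45.7) were higher in the Dat-high cells, and Pts was on 3 of 4.

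Other genes of dopamine handling divided the same cells: Ddc had a mean RPKM of 1883 against 425, Slc18a2 554 against 101.99, Aldh1a1 2679 against 180.97 and Akr1b3 75.2 against 24.2, and Nos1 (0.372 against 8.14) and Aldh1b1 (1.36 against 5.91) were lower, both having passed the limit only through the Dat-low cells. Median depth was 1869410 and 1738853 reads. The summed oligodendrocyte markers had medians of 2.52 and 24.1 and the astrocyte markers of 79.3 and 22.3, and their part in the differences was not tested.

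Adult cells without Slc6a3, of any Th level, were set apart by Nxph4 and Gad2, marker genes of Dat-low groups in the study. In the cells with Nxph4 over 150, Gch1 was over 10 in 7.41% and Maob in 8.02%, with Spr in 93.8%, Qdpr in 100% and Pcbd1 in 80.9%. In 64 cells with Gad2 over 150, Gch1 was over 10 in 18.8% and Maob in 4.69%, with Spr in 89.1% and Pcbd1 in 95.3%. The 71 adult cells with Slc6a3 over 150 had Gch1 in 76.1% and Maob in 52.1%. Among Th-high cells alone, Gch1 was over 10 in 11.5% of 52 Nxph4 cells and 18.8% of 32 Gad2 cells, so these cells had Th over 150 with little Gch1.

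**Figure D4:**
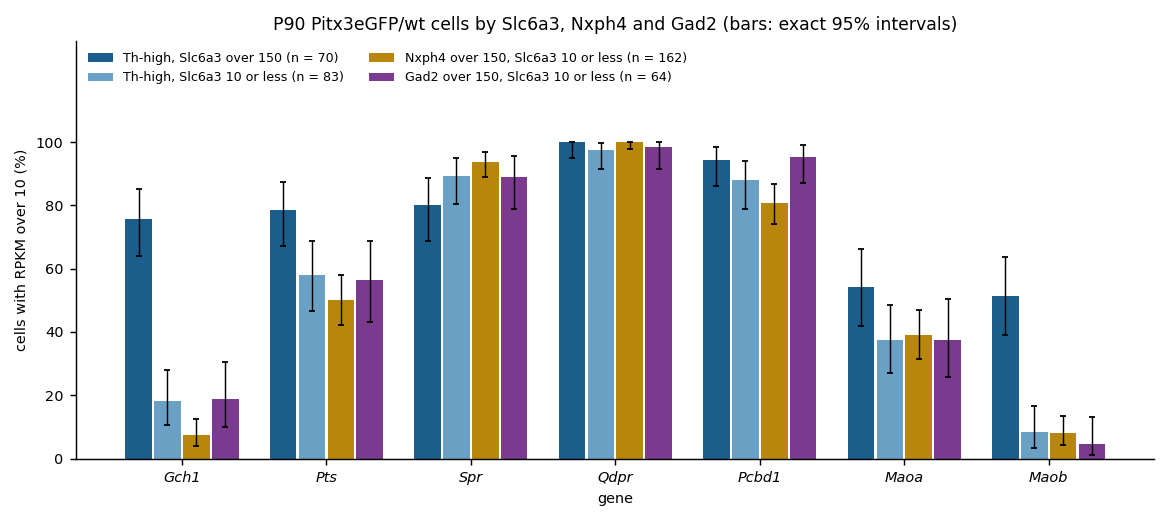
Percent of P90 cells over an RPKM of 10 (y axis) for the 7 members in sets of adult cells defined by Slc6a3, Nxph4 and Gad2, with exact binomial 95% intervals. Gch1 and Maob are high in the set with Slc6a3 over 150, while Spr, Qdpr and Pcbd1 are near the top in all sets.

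The same division was made at the earlier stages. By the study's account differences in Dat arose somewhat later in maturation, so early cells with little Slc6a3 need not belong to the adult Dat-low groups. The sets are thus not the same cells followed over time. The share of all genes past counting error is given for the P90 division only. For the earlier stages the differences below therefore have no background beside them. At E13.5 Gch1 was over 10 in 62.5% of 24 Dat-high and 73.7% of 57 Dat-low cells among the Th-high cells, a difference of -11.2 points (-33.2 to 9.49). At that stage Pcbd1 (-22.1 points, -35.3 to -3.39) and Qdpr (-24.6, -44.0 to -0.787) were lower in the Dat-high cells. At E15.5 Gch1 was over 10 in 61.1% of 36 against 39.3% of 56 (21.8 points, 0.967 to 40.2). At E18.5 its shares were 70% of 80 against 24.2% of 33 (45.8, 25.8 to 60.3). At P1 they were 76.7% against 34.1% of 44 (42.6, 25.3 to 56.7), and at P7 41.9% of 31 against 27.3% of 11 (14.7, -18.5 to 39.3). Maoa was higher in Dat-high cells at E18.5 (20.2 points, 0.253 to 36.5). Pcbd1 was higher there among P1 cells with spike-in RNA (29.6, 2.88 to 54.5), but over all P1 cells its interval reached 0 (11.1, -5.37 to 27.9). In the Dat-high cells the mean RPKM of Gch1 stayed between 90.1 and 133.1 at all 6 stages. In the Dat-low cells it was 175.3, 35.98, 32.3, 20.4, 30.7 and 7.20 in stage order, highest at E13.5 and lowest at P90.

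Maob separated later. Its shares in Dat-high and Dat-low cells were 10% and 6.06% at E18.5, 13.6% and 11.4% at P1, 16.1% and 9.09% at P7, and 51.4% and 8.43% at P90. Within the Dat-high cells other members had higher shares at P90 than at E13.5, but not at each step. Spr went from 4.17% through 8.33%, 25%, 19.4% and 32.3% to 80%, Pts from 41.7% through 33.3%, 57.5%, 56.3% and 41.9% to 78.6%, Pcbd1 from 4.17% through 30.6%, 62.5%, 67.96% and 70.97% to 94.3%, and Maoa from 12.5% through 5.56%, 47.5%, 37.9% and 41.9% to 54.3%.

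**Figure D5:**
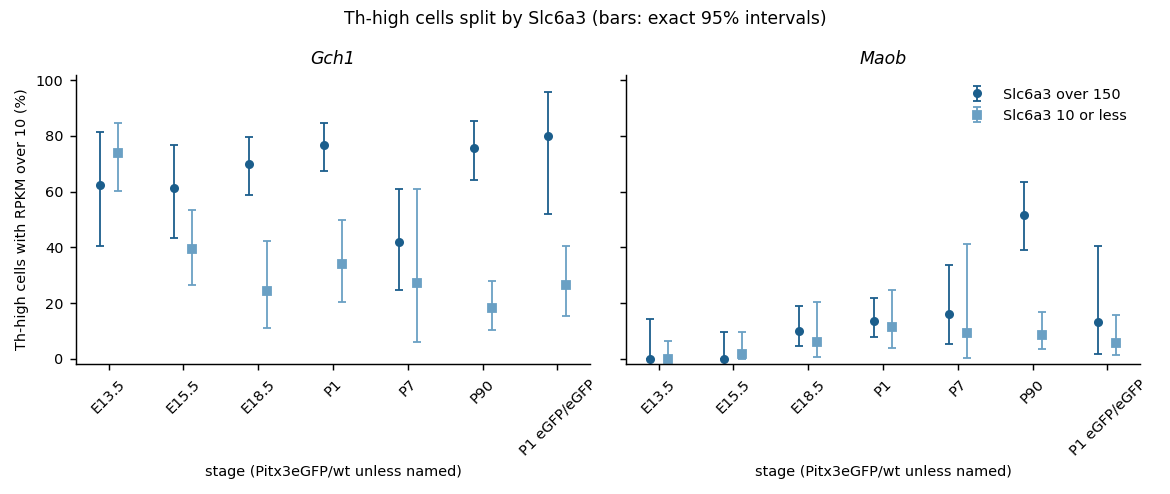
Percent of Th-high cells over an RPKM of 10 for Gch1 and Maob (y axis) by stage (x axis) for cells with Slc6a3 over 150 and at 10 or less, with exact binomial 95% intervals. Cells are Pitx3eGFP/wt, with P1 Pitx3eGFP/eGFP cells in the last column. For Gch1 the sets lie at 62.5% and 73.7% at E13.5 and at 75.7% and 18.1% at P90.

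The genotype comparison asked how the enzymes stood without Pitx3. At E13.5, Pitx3eGFP/eGFP cells received spike-in RNA and Pitx3eGFP/wt cells did not, and they were less deep (a median of 753256 against 2357898 reads), so genotype and library batch cannot be told apart there. In Th-high cells Gch1 was over 10 in 80.5% of 77 Pitx3eGFP/eGFP and 73.3% of 90 Pitx3eGFP/wt cells, a difference of 7.19 points (-5.81 to 19.5). Spr was the 1 of 7 members past counting error (11.7% against 3.33%, 8.35 points, 0.262 to 17.7), against 14.6% of all genes, and with every cell thinned to the same depth no member was.

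In Th-low cells at E13.5 Gch1 was over 10 in 60% of 85 Pitx3eGFP/eGFP cells and 31.8% of 44 Pitx3eGFP/wt cells, a difference of 28.2 points (10.01 to 43.5), with mean RPKM of 114.9 and 69.5. Pcbd1 was at 27.1% against 6.82% (20.2 points, 6.13 to 31.5). These were 2 of 7 members, against 14.6% of all genes in that comparison too. The division by Th itself differed by genotype at E13.5. Th-low cells outnumbered Th-high cells in Pitx3eGFP/eGFP and were the fewer in Pitx3eGFP/wt. The Th-low sets, like the Th-high sets, therefore need not hold the same kinds of cell in both genotypes. The part of this shift in the Gch1 and Pcbd1 differences was not tested. On the 3 homozygote plates Gch1 was over 10 in 64.1%, 41.7% and 61.8% of Th-low cells, each above the Pitx3eGFP/wt share.

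At P1 the comparison used the Pitx3eGFP/wt cells with spike-in RNA, which came from 1 plate, other than those of the Pitx3eGFP/eGFP cells. In Th-high cells Gch1 was over 10 in 46.1% of 89 Pitx3eGFP/eGFP and 73.1% of 67 Pitx3eGFP/wt cells, which was 27.1 points lower (-27.1, -40.6 to -11.5). The means were alike, at an RPKM of 72.3 and 67.5, so fewer Pitx3eGFP/eGFP cells had Gch1 at a similar mean. Maoa differed by -12.6 points (-27.2 to 2.43). Pcbd1 was over 10 in 86.5% against 73.1% (13.4 points, 0.816 to 26.3). Gch1 and Pcbd1 were 2 of 7 members by share, against 8.55% of all genes, and 1 of 7 (Gch1) with either homozygote plate left out, since the Pcbd1 interval then reached 0. By mean RPKM none of the 7 was 2-fold higher (4.94% of genes) or lower (2.25%). The Gch1 share was 46.8% and 45.2% on the 2 homozygote plates. In the Pitx3eGFP/wt Th-high cells without spike-in RNA it was 50.9%, and against all P1 Pitx3eGFP/wt Th-high cells (59.4%) the difference was -13.4 points (-25.5 to -0.675). In that comparison Pcbd1 differed by 21.4 points (10.5 to 30.6), Spr by 12.1 (1.56 to 23.3) and Maoa by -1.07 (-12.1 to 10.9), so the size of the Gch1 difference depended on which Pitx3eGFP/wt cells were used.

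Genes beside the members differed more between the P1 sets of Th-high cells. The study found that few Pitx3eGFP/eGFP cells contributed to its Aldh1a1 and Dat subtypes, while its other subgroups appeared unaffected. The P1 Th-high sets of the genotypes therefore need not hold the same kinds of cell. The part of this in the values here and in those of the members was not tested. Slc6a3 had a mean RPKM of 79.8 in Pitx3eGFP/eGFP against 876 in Pitx3eGFP/wt Th-high cells, Slc18a2 79.3 against 449 and Aldh1a1 358.1 against 3474, with Ddc at 361 and 605 and Th at 1327 and 2279. The list counts were 2 of 3 storage and uptake genes, 1 of 10 breakdown genes and 1 of 4 genes related to the cofactor (Pcbd2, 5.12 against 12.4) at least 2-fold lower, against 2.25% of all genes. Microglial markers summed to a mean of 187.1 in the Pitx3eGFP/eGFP and 0.002 in the Pitx3eGFP/wt Th-high cells, with a median of 0.214 in the former, and their part was not tested.

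Within each genotype at P1, Gch1 again went with Slc6a3. Of the Pitx3eGFP/eGFP Th-high cells 15 of 89 (16.9%) were Dat-high, and Gch1 was over 10 in 80% of them against 26.4% of 53 Dat-low cells, a difference of 53.6 points (25.2 to 69.9). Of the 67 Pitx3eGFP/wt Th-high cells with spike-in RNA 49 (73.1%) were Dat-high, with Gch1 over 10 in 83.7% (70.3% to 92.7%), and 14 were Dat-low, with Gch1 in 35.7% (12.8% to 64.9%). These cells were again from 1 plate, and the Gch1 shares of matched sets lay within each other's intervals. The mean RPKM of Gch1 was 214.5 against 86.1 in Pitx3eGFP/eGFP and Pitx3eGFP/wt Dat-high cells and 36.4 against 8.88 in Dat-low cells, with medians of 100.7 against 66.4 and 0.269 against 0. In P1 Th-low cells (52 against 14) no member differed by more than counting error, against 5.23% of all genes, which with 14 cells allows large differences.

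Cells that held the whole synthesis route were rare until the adult. Gch1, Pts and Spr were all over 10 in 1 cell (0.714%) at E13.5, in 3.57%, 8.02%, 6.34% and 6.52% of cells from E15.5 to P7, and in 15.7% (11.9% to 20.1%) at P90. At P90 this was 26.4% (20.1% to 33.5%) of Th-high and 3.06% (0.636% to 8.69%) of Th-low cells. All 51 P90 cells with the route also had Qdpr and Pcbd1 over 10, as nearly all adult cells did for Qdpr and most for Pcbd1. The joint share cannot exceed that of the rarest of the genes, which was Spr at E13.5 and Gch1 at P90. Whether these genes met in cells more often than their single shares give was not tested. The mean number of the 5 cofactor genes over 10 per cell was 1.64, 1.69, 2.70, 2.37, 2.51 and 3.62 from E13.5 to P90.

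For the breakdown enzymes in adult Th-high cells, 25.8% had Maoa alone, 10.7% Maob alone, 16.9% both and 46.6% neither over 10. In Th-low cells the shares were 32.7%, 7.14%, 2.04% and 58.2%. At E13.5 93.6% of cells had neither. A cell at 0 in these libraries may still hold a few transcripts, so absence from a cell is a statement about detection.

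Over 21 groups of stage, genotype and Th level, the gene whose mean level was most like that of Gch1 was Dhrs3, a retinal reductase (Pearson r of log2(mean RPKM + 1) 0.88, among 11611 genes), followed by Il1rap (0.87) and Tle3 (0.85). For Pts the closest was Ahcy (0.73), followed by Gm8394 and Rgs2 (0.65 each). For Spr, Gm1840 (0.94), Gpi1 (0.93) and Gm15502 (0.92) were closest, for Qdpr Fam213b (0.97), Gm7180 (0.95) and Cyhr1 (0.94), and for Pcbd1 Ndfip1 (0.95), Gm7335 (0.94) and Scoc (0.93). For Maoa they were Ethe1 (0.92), Gsto1 (0.91) and Actr3b (0.91), and for Maob Cgref1 (0.91), Cdkl1 (0.91) and Matk (0.90). Entries named Gm are predicted genes, and their counts are uncertain where they share reads with a near-identical copy. Pts had the weakest likeness and also the flattest level of the 7 over stages.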

How the data were processed

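Cells were sorted by GFP and sequenced by Smart-seq2 in the study. For each cell the authors deposited read counts and RPKM per gene: the deposited counts and RPKM values were made from uniquely mapping reads aligned with STAR to mm10 with eGFP and ERCC sequences and summed over Ensembl gene models with rpkmforgenes. Annotation changes the RPKM through gene length, and single reads without molecular identifiers carry amplification error.

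Here RPKM was used as deposited, and the deposited counts for depth and thinning. Cells were kept with more than 100000 reads on genes and at least 15% (P90: 3.4%) of the 31526 genes with a read detected. Cells were clustered (50 principal components, 5 neighbours, infomap with 10 trials, in place of the t-SNE maps of the study). Clusters in which at least 3 oligodendrocyte markers were each over 10 in most cells were left out (154 cells). This left 140, 140, 187, 268, 92 and 325 Pitx3eGFP/wt cells from E13.5 to P90 and 179 and 164 Pitx3eGFP/eGFP cells at E13.5 and P1. No doublet caller was run. Each stage and genotype is 1 sample, so no test was made. Shares have exact Clopper-Pearson intervals and differences Newcombe intervals (95%); a share of 0 is given its limit of 3 counts. Folds are (mean RPKM + 1)/(mean RPKM + 1), past the limit at 2, for genes whose mean RPKM reached 5 in either set. Shares count cells over an RPKM of 10. Differing "by more than counting error" means that the Newcombe interval excluded 0. The genes named were the members, pathway genes past 2-fold (others are values beside them) and the 3 genes most like each member. The members, lists and limits were chosen with earlier results of these data known, and the divisions by Slc6a3 before P90 and by Aldh1a1 were added after values were seen. The count and fold code was tested on simulated data, with changes well above the limit of 2 and with larger sets of cells than many compared here. That test cannot show how well changes near the limit or small sets were called. Alternatives were other RPKM, Th and detection limits, thinning, the treatment of oligodendrocyte-like cells, plates left out, and other fold settings. Python 3.11.15, numpy 2.4.6, pandas 2.3.3, scipy 1.17.1, scikit-learn 1.9.0, igraph 0.11.9 and matplotlib 3.10.9 were used. Promoter windows were from RefSeq (GRCm38.p6) and coordinates from GENCODE (GRCm38).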

Additional observations from a re-analysis of the deposited data

Results flagged for a closer look

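The oligodendrocyte-like cells that were left out entered none of the comparisons above by stage, Th level or genotype. Each of the 7 members was over an RPKM of 10 in more of them than the limit a count of 0 allows. Pts and Maoa were over 10 in 49.4% each, Qdpr in 67.5%, Spr in 39.6%, Pcbd1 in 18.8%, Maob in 9.74% and Gch1 in 5.19%. At P7, where 87 of these cells came from, Gch1 was over 10 in none of the 87 against 33.7% of the 92 kept cells, and Pcbd1 in 19.5% against 52.2%. Maoa (58.6% against 42.4%) and Spr (49.4% against 34.8%) had the higher share in the left-out cells. No explanation was tested.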

How the results depend on the processing

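Counts below are of the 7 members whose share differed by more than counting error. The share of all genes past counting error is given above for the main settings only, so the counts under alternatives have no background beside them. Both stage comparisons gave 7 under every alternative, and leaving out cells with glial or vascular markers, added after seeing the data, changed none of the 14 counts. With RPKM over 1 as the limit for a cell, the count became 1 from 0 (Th level at E15.5), 1 from 2 (Th level at P1 in Pitx3eGFP/eGFP), 2 from 1 (genotype, E13.5 Th-high) and 1 from 0 (genotype, P1 Th-low). With RPKM over 50 it became 2 from 0 (Th level at E15.5), 1 from 2 (Th level at E18.5), 0 from 1 (Th level at E13.5 in Pitx3eGFP/eGFP), 0 from 1 (genotype, E13.5 Th-high), 1 from 2 (genotype, E13.5 Th-low) and 1 from 2 (genotype, P1 Th-high). With Th over 50 against 1 or less it became 1 from 3 (Th level at E13.5), 0 from 4 (Th level at P90, where 7 cells had Th at 1 or less and the Pts difference reversed to -6.21 points), 0 from 2 (Th level at P1 in Pitx3eGFP/eGFP) and 1 from 2 (genotype, E13.5 Th-low); at E15.5 and E18.5 too few cells had Th at 1 or less. Thinning gave 0 from 1 (genotype, E13.5 Th-high) and 1 from 0 (genotype, P1 Th-low). With the oligodendrocyte-like cells kept it was 1 (Th level at E15.5), 4 from 1 (Th level at P7, where the Gch1 difference was 29.4 points) and 1 (genotype, P1 Th-low), and with them left out cell by cell 1 (Th level at E15.5). Detection over all entries gave 1 (Th level at E15.5), 1 (Th level at P1 in Pitx3eGFP/eGFP) and 1 (genotype, P1 Th-low), no detection limit 0 (genotype, E13.5 Th-high) and 1 (genotype, P1 Th-high), and all P1 Pitx3eGFP/wt cells 2 (genotype, P1 Th-low) and 3 from 2 (genotype, P1 Th-high). Leaving out each named plate gave 1 to 2 (Th level at E18.5), 3 to 4 (P90), 0 to 1 (E13.5 Pitx3eGFP/eGFP, 0 without 13H_6), 0 to 1 (P1 Pitx3eGFP/eGFP, 0 without P1H_1), 0 to 1 (genotype, E13.5 Th-high), 2 to 3 (E13.5 Th-low) and 1 (P1 Th-high). Of 1057 member differences under alternatives 1035 stayed within counting error of the value given, 21 moved further and 1 reversed. Genes past 2-fold over the 14 comparisons numbered 527 to 4603, against up to 6333 when a mean RPKM of 1 was enough, up to 2737 when it had to reach 20, 636 to 4911 with a pseudocount of 0.1 and 502 to 4670 from summed counts. The count of members past 2-fold changed in 1, 3, 1 and 6 of the 14 comparisons under these settings in that order, by at most 3 (2 from 5 for E13.5 against E18.5 when the mean RPKM had to reach 20). No paired analysis was possible because no animal, litter or replicate number links stages or genotypes, while sets of cells that shared plates were compared within plates. Small differences were not detectable in the smallest sets, which on single plates went down to 6 cells.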

Other observations

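Within Th-high cells with Slc6a3 over 150, a further division by Aldh1a1 (over 150 against 10 or less), chosen after values were seen, was made at 3 stages. At E18.5 the share was lower in Aldh1a1-high cells for 7 of 7 members (62.1% of all genes) and by more than counting error for 4 (8.21% of genes), namely Gch1, Qdpr, Pcbd1 and Maoa. At P1 it was lower for 7 (62.1%) and beyond counting error for 1, Maoa (7.62%), and at P90 lower for 4 (62.4%) and beyond counting error for 0 (7.43%), so at P90 the members were near the background. Gch1 was over an RPKM of 10 in 59.5% of 42 Aldh1a1-high and 80.6% of 36 Aldh1a1-low cells at E18.5, a difference of -21.0 points (-38.9 to -0.457), with mean RPKM of 46.9 and 142.8. At P1 the shares were 71.4% of 63 and 87.1% of 31 cells (-15.7 points, -30.1 to 2.98), with means of 71.2 and 191.96. At P90 they were 68.6% of 35 and 87.1% of 31 cells (-18.5 points, -36.8 to 1.97), with means of 61.6 and 163.6. Gch1 was thus the lower in Aldh1a1-high cells at all 3 stages by mean, and by share beyond counting error at E18.5.

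Of the other members past counting error, Qdpr differed by -21.4 points (-38.9 to -1.35) at E18.5. Maoa was over 10 in 33.3% of Aldh1a1-high and 66.7% of Aldh1a1-low cells at E18.5, 31.7% and 58.1% at P1, and 62.9% and 51.6% at P90. Pcbd1 was at 42.9% and 86.1% at E18.5, 61.9% and 80.6% at P1, and 94.3% and 96.8% at P90. Maoa thus had the higher share in Aldh1a1-high cells at P90, by 11.2 points (-12.0 to 33.1), and that difference between stages was not tested.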
